A study of Mus musculus with 8 samples.

Results

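Angptl2, which encodes angiopoietin-like protein 2, was examined in sorted sensory neurons of female and male mice together with the other angiopoietin-like genes Angptl1, Angptl4, Angptl6 and Angptl7, the angiopoietins Angpt1 and Angpt2, and the Tie receptors Tek and Tie1. These 9 genes, of 22609 with a read count, were taken by symbol and were chosen from measured values: the female-male difference of Angptl2 in these same libraries was known. Their differences between the sexes are therefore given as estimates with standard errors and with no test. Angptl2 was 3.02-fold higher in males than in females, Angpt2 and Angptl4 had higher mean levels in females, Angptl6 was at a like level in both, and the Tie receptors were near the limit of detection.

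The dorsal root ganglion (DRG) holds the cell bodies of sensory neurons. Naïve C57BL/6J mice of 8 to 12 weeks, with all females in the estrous phase, received the fluorescent lectin WGA-488 in both hindpaws and thighs, and 2 days later the L3, L4 and L5 ganglia, 6 per sample, were dissociated and tracer-labelled cells were sorted. There were 4 female and 4 male samples, all untreated apart from the tracer, each sequenced as 1 SMART-seq2 library. Neurons of skin and of muscle were mixed in every library, and the females represent 1 phase of the estrous cycle. Each library held 4.80 to 7.33 M reads in genes (M, 1e6 reads), so that 3 reads corresponded to 0.409 to 0.625 counts per 1e6 gene reads (CPM). The replicates are different mice. Every SD with n = 4 and every p-value between the sexes rests on the spread between them. An SD or p-value over all 8 libraries (n = 8) pools the sexes, so that any sex difference is part of its spread.

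Angiopoietins are secreted ligands of the endothelial tyrosine kinase Tek, also called Tie2. Angpt1 activates this receptor and stabilises vessels, Angpt2 blocks or activates it depending on context, and Tie1 is a co-receptor without a firmly assigned ligand of its own. The angiopoietin-like proteins have the same coiled-coil and fibrinogen-like parts but do not bind Tek: Angptl2 is a pro-inflammatory secreted glycoprotein that acts through integrins and an inhibitory immunoglobulin-like receptor, Angptl4 inhibits lipoprotein lipase, and Angptl6 is known from liver and energy metabolism. In the nervous system Tek and Tie1 are used as markers of blood vessels rather than of neurons.

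The libraries carried the neuronal genes that their label calls for. All 12 neuronal markers, among them Tubb3, Snap25, Prph and Avil, had reads in every library and summed to 22546 to 32874 CPM in females and 22149.5 to 25742 CPM in males. Glial genes were present as well: the 10 glial markers, led by Apoe, summed to 11474 to 14802 CPM in females and to 5362 to 11075 CPM in males. Of 10 endothelial markers, 6 had reads in every library, led by Egfl7, which gave most of their sum, and Esam, at 39 to 135 reads, while Cdh5 had at most 3 reads and Erg at most 2 reads in any library. The endothelial sum was highest in female replicate 4, at 111 CPM against 61.7 to 80.5 CPM in the other libraries, and Eng and Cldn5 reached their maxima of 61 and 55 reads there. The 4 globin genes Hba-a1, Hba-a2, Hbb-b1 and Hbb-b2 were listed at 0 in every library. Female replicate 4 differed most from its group, with chi-square values per degree of freedom of 30.1 to 44.9 against the other females, compared with 2.82 to 12.1 for all other pairs within a sex.

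Angptl2 lies on the forward strand of chromosome 2 at chr2:33071589-33103237 (build mm9, also called NCBIM37). RefSeq holds a promoter window for Angptl2, and the 250 bases before its annotated start are shown because Angptl2 had the largest sex difference among the 6 members with a fitted estimate. The window matched mm9 at 1 place, chr2:33071231-33071480 on the forward strand, and lies upstream of the first Angptl2 exon of the GENCODE M1 annotation. Capitals mark matches to the GC box, the letters GGGCGG on either strand.
Angptl2 promoter: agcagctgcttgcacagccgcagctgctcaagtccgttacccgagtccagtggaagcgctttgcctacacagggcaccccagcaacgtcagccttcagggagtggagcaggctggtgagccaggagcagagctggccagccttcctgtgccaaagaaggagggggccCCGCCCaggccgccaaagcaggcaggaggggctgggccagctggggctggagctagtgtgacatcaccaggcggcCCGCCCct
With the next 50 bases included, the window held 66.7% G and C, against a median of 52.7% and quartiles of 45.7% and 61.7% over all 32851 RefSeq mouse promoter windows of this length, 9 CpG dinucleotides, and GC boxes that begin 83 and 8 bases before the start. A GC box was present in 35.7% of all windows. Other motifs were searched on both strands as well. The TATA box (TATAAA) was not in this window and was present in 13.6% of all windows. The CCAAT box was not in it and was present in 37.4%. The E-box (CACGTG) was not in it and was present in 7.15%. The AP-1 site (TGANTCA) was not in it and was present in 7.81%. The full oestrogen and androgen response elements were not in it either, and were present in 0.07% and 0.00913% of windows. These matches describe letters only and no binding was measured.

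Angptl2 was detected in every library. Its levels in female replicates 1 to 4 were 16.1, 11.5, 16.5 and 10.6 CPM (117, 66, 79 and 63 reads). In male replicates 1 to 4 the levels were 31.2, 37.4, 41.9 and 52.2 CPM (229, 252, 254 and 353 reads). Every male library was above every female library, and the lowest male level was well clear of the highest female level. The mean was 13.7 ± 3.05 CPM in females and 40.7 ± 8.84 CPM in males (SD, n = 4 each), and the edgeR estimate was a log2 fold change, female over male, of −1.59 with a standard error (SE) of 0.21, or 3.02-fold higher in males. The estimate was −1.59 (SE 0.18) without female replicate 4 and male replicate 1, and −1.70 (SE 0.27) with the summed glial marker level as a covariate; both of these fits were chosen after the values were seen.

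**Figure D1:**
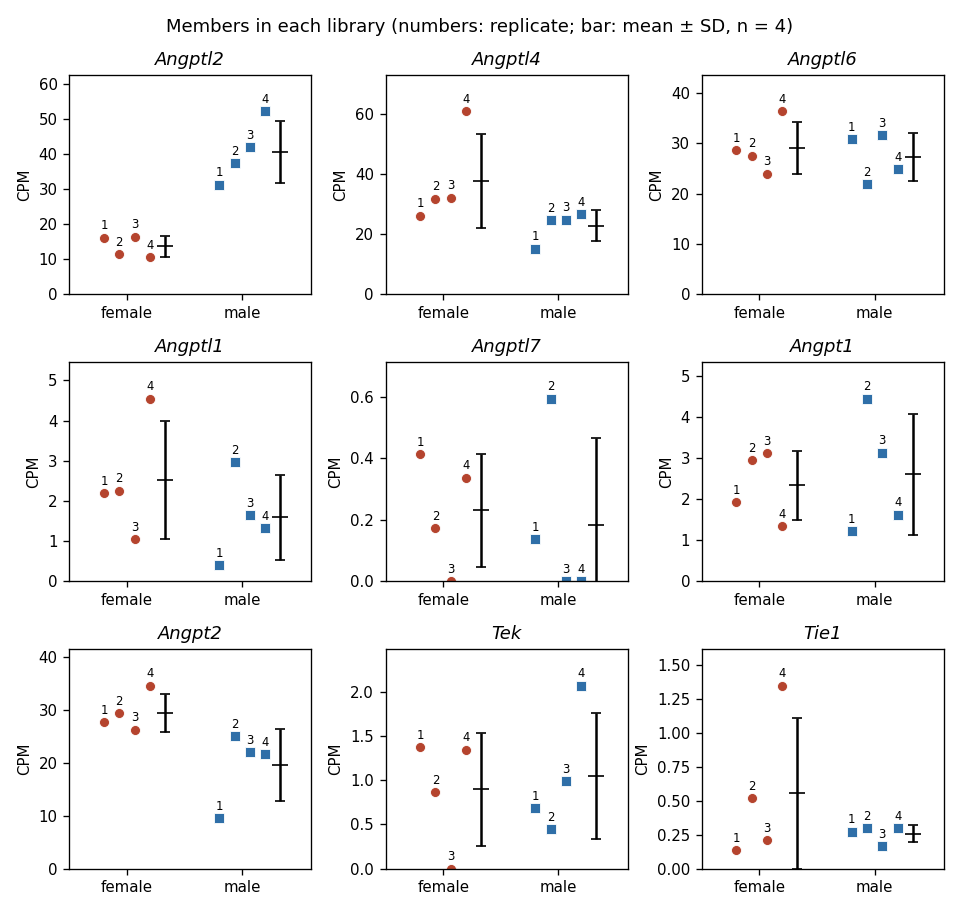
Counts per 1e6 gene reads (CPM, vertical axes, starting at 0) of the 9 genes in each female (red circles) and male (blue squares) library, with the replicate number above each point and the mean ± SD (n = 4) beside each group; SD bars stop at 0. The 4 male libraries sit between 31.2 and 52.2 CPM for Angptl2, all above the 4 female libraries.

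Angpt2 was the only other member whose sexes did not overlap, in the opposite direction. It stood at 27.6, 29.3, 26.2 and 34.5 CPM in female replicates 1 to 4 and at 9.55, 25.0, 22.0 and 21.6 CPM in male replicates 1 to 4. The females were close together, male replicate 1 was far below the other males, and the gap between the lowest female and the highest male was narrow. The mean was 29.4 ± 3.62 CPM in females and 19.5 ± 6.81 CPM in males (SD, n = 4 each), with a log2 fold change of 0.58 (SE 0.25). It was 0.35 without male replicate 1. Non-overlap of the sexes was found for 2 of the 6 members that passed the expression filter, against 5.52% of all 12518 genes tested (3.0% with the females higher and 2.52% with the males higher); nothing is read from this count, since the members were chosen with this contrast known.

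Angpt1, the activating Tek ligand, was scarce and did not separate the sexes. It had 14, 17, 15 and 8 reads in female replicates 1 to 4 (1.92, 2.95, 3.12 and 1.35 CPM) and 9, 30, 19 and 11 reads in male replicates 1 to 4 (1.23, 4.46, 3.14 and 1.63 CPM). Its log2 fold change was −0.19 (SE 0.44), and the ranges of the sexes overlapped, with the highest value in male replicate 2. Per exon length Angpt2 was the more abundant angiopoietin of the pair in every library.

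The receptors were at the edge of detection. Tek had 10, 5, 0 and 8 reads in females and 5, 3, 6 and 14 reads in males, at most 2.07 CPM. Tie1 had 1, 3, 1 and 8 reads in females and 2, 2, 1 and 2 reads in males, at most 1.35 CPM, with the highest value in female replicate 4, where the endothelial sum was highest as well. Neither passed the expression filter, so no fold change is given, and at this depth the sexes were not compared for them. The summed level of the endothelial markers differed between the sexes by 0.090 on a log2 scale (female minus male; adjusted p = 0.83 over 7 marker lists, two-sided exact permutation test, n = 4 each; the smallest p it allows is 0.0286). That difference was −0.093 without female replicate 4.

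Angptl4, the lipase inhibitor, had a higher mean in females, with overlap. Its levels were 26.1, 31.8, 32.1 and 60.8 CPM in female replicates 1 to 4 and 15.1, 24.5, 24.8 and 26.6 CPM in male replicates 1 to 4. Female replicate 4, which also had the highest endothelial, glial and neuronal sums, was far above all other libraries. Male replicate 1 was the lowest, and female replicate 1 lay below the highest male. The means were 37.7 ± 15.7 CPM and 22.8 ± 5.16 CPM (SD, n = 4 each), with a log2 fold change of 0.71 (SE 0.27), which was 0.38 without female replicate 4 and 0.23 (SE 0.13) without female replicate 4 and male replicate 1.

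Angptl6 had the smallest fitted sex difference of the 6 members. It stood at 28.6, 27.6, 24.0 and 36.4 CPM in females and at 30.8, 21.8, 31.7 and 24.9 CPM in males. The sexes were interleaved, with a log2 fold change of 0.07 (SE 0.17). Angptl1, described as anti-angiogenic, had 16, 13, 5 and 27 reads in females and 3, 20, 10 and 9 reads in males, and its log2 fold change of 0.66 (SE 0.54) was close to its error. That estimate was 0.23 without female replicate 4, 1.16 without male replicate 2 and −0.10 without female replicate 4 and male replicate 1. Angptl7, known from the eye, had at most 4 reads in any library and none in 3 of 8, so that it passed no filter; of the 9 members 6 passed it, and 7 had reads in every library. Among family members outside these 9, Gm6484, the older symbol of the liver gene Angptl8, had at most 2 reads in any library and Angpt4 at most 4.

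Glial markers had, in sum, the same lowest and highest library as Angpt2 and Angptl4. Their summed level was 11489, 11474, 11630 and 14802 CPM in female replicates 1 to 4 and 5362, 9630, 11075 and 8846 CPM in male replicates 1 to 4, so that every female was above every male (log2 difference 0.54, p = 0.0286, adjusted p = 0.20, two-sided exact permutation test, n = 4 each). The difference was 0.32 without male replicate 1. Apoe, at a mean of 7379 CPM, gave most of this sum. Not every marker followed it, since Erbb3 had its lowest level, 6.57 CPM, in female replicate 4. Male replicate 1 was lowest and female replicate 4 highest for the glial sum, as they were for Angpt2 and Angptl4. The same held for the neuronal sum (22149.5 and 32874 CPM), the fibroblast sum and Angptl1 (0.409 and 4.55 CPM). The pattern of these libraries was therefore not particular to glial markers, and only the glial sum was taken as a covariate. With the glial sum as a covariate the log2 fold change was −0.02 (SE 0.20) for Angpt2 and 0.11 (SE 0.28) for Angptl4. It was −0.57 (SE 0.55) for Angptl1, −0.64 (SE 0.55) for Angpt1 and 0.06 (SE 0.25) for Angptl6. Angptl2 kept its direction as given above. Since the glial sums of the sexes did not overlap, sex and glial level cannot be fully told apart in these fits. In bulk samples such as these, fewer cells of a type and less RNA per cell cannot be told apart, and which cells held the Angpt2 and Angptl4 transcripts was not tested.

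**Figure D2:**
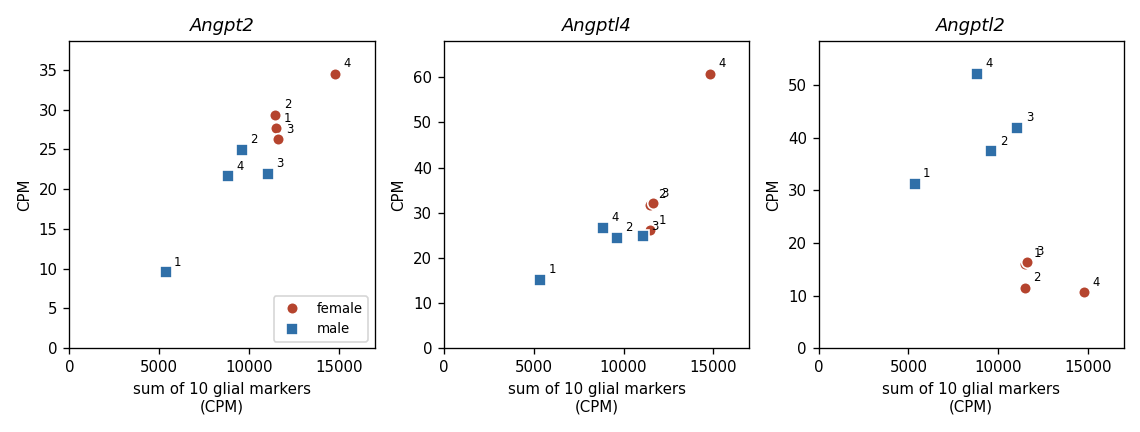
Level of Angpt2, Angptl4 and Angptl2 (CPM, vertical axes) against the sum of 10 glial markers (CPM, horizontal axes) in each female (red circles) and male (blue squares) library, numbered by replicate. Male replicate 1 is lowest and female replicate 4 highest on both axes for Angpt2 and Angptl4, and for Angptl2 every male is above every female; no male and female library have the same glial sum.

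With 4 libraries per sex and 7 marker lists, a list that separates the sexes fully on its own has an adjusted p of 0.20, as the glial list did, so no such list could pass adjusted p 0.05 alone and the p-values of these lists say little. Fibroblast markers summed to 122 to 193 CPM in females and to 61.5 to 125 CPM in males (log2 difference 0.64, adjusted p = 0.20), again lowest in male replicate 1 and highest in female replicate 4. The differences were 0.68 for macrophage markers (adjusted p = 0.267), −0.35 for mural cell markers (adjusted p = 0.28), 0.58 for blood markers (adjusted p = 0.28, from Alas2 alone) and 0.12 for neuronal markers (adjusted p = 0.533), all by the two-sided exact permutation test with n = 4 each. Single libraries and the way of averaging weighed heavily: the macrophage difference was 0.39 without male replicate 1 and 0.22 as a mean of log2 values over the list, the mural difference −0.16 without female replicate 4 and −0.035 as such a mean, the neuronal difference 0.010 without female replicate 4, and the blood difference 0.12 without female replicate 4 or as such a mean and 1.25 with a pseudocount of 0.1 in place of 1. Their part in the members' levels was not tested.

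Per exon length, the order of the members was not that of their reads. In reads per kilobase per 1e6 gene reads (RPKM), averaged over the 8 libraries, Angptl6 came first at 18.0 ± 3.02, followed by Angptl4 at 9.20 ± 4.08, Angpt2 at 6.63 ± 1.98, Angptl2 at 4.32 ± 2.50, Angptl1 at 0.72 ± 0.45 and Angpt1 at 0.58 ± 0.26 (SD, n = 8), with Tek, Angptl7 and Tie1 at 0.21, 0.10 and 0.08. Neighbours in this order were compared within libraries among the 7 members with reads in every library, which leaves out Tek and Angptl7. The order itself was set by these values, so the tests show only how evenly the libraries hold it. Angptl6 exceeded Angptl4 by 1.06 ± 0.53 and Angptl4 exceeded Angpt2 by 0.45 ± 0.32 on a log2 scale, each in 8 of 8 libraries (adjusted p = 0.0117 over 6 pairs, two-sided exact sign-flip permutation test). Angptl2 exceeded Angptl1 by 2.64 ± 1.63 (SD, n = 8), also in 8 of 8 libraries (adjusted p = 0.0117, same exact test), at 1.46 in females and 3.82 in males. For the last pair, Angpt1 and Tie1, no ratio is given, since Tie1 had 1 to 8 reads per library.

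Angptl2 changed place with sex. In females it was the fourth gene, at 2.17 RPKM against 7.98 for Angpt2, and in males it was the third, at 6.48 RPKM against 5.29. The mean log2 ratio of Angpt2 to Angptl2 was 1.90 in females and −0.36 in males. Over all libraries this ratio was 0.77 ± 1.29 and above 0 in 5 of 8 (adjusted p = 0.159, same exact test, n = 8). With the length of the longest transcript of each gene in place of all merged exons, 3559 against 6286 bases for Angptl2, this mean ratio was near 0, so the order of these neighbours rests on the gene model. With that length Angptl2 was also above Angptl4 in every male library, at 8.78 to 14.7 RPKM against 4.96 to 8.72 RPKM, and would be the second gene in males. Angptl1 and Angpt1 did not differ beyond their spread (log2 ratio 0.16 ± 1.08, higher in 4 of 8, adjusted p = 0.766, same exact test).

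**Figure D3:**
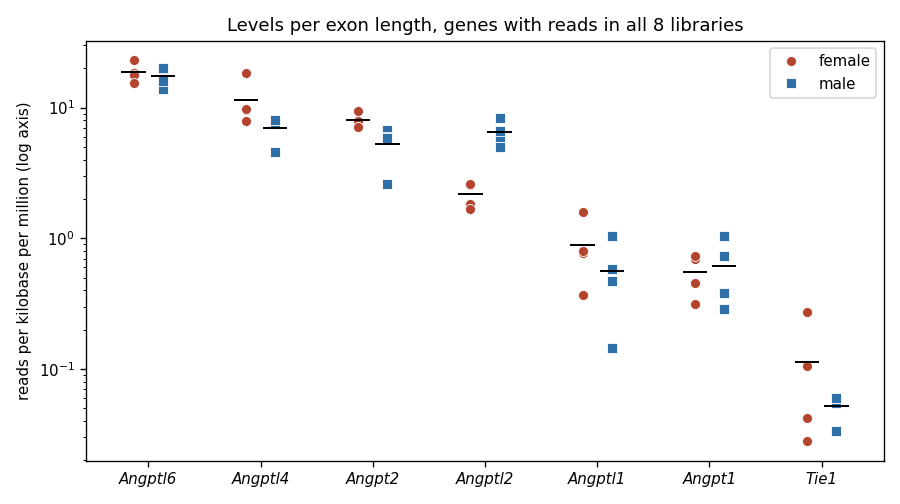
Reads per kilobase of merged exons per 1e6 gene reads (RPKM, vertical log axis) of the 7 members with reads in all 8 libraries, in female (red circles) and male (blue squares) libraries, with a bar at each group's mean. Angptl6 is highest in both sexes, and Angptl2 is at a mean of 2.17 in females and 6.48 in males.

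Of the 9 members, 6 overlap another annotated gene, as do 34.2% of all 22221 protein-coding genes, and 4 lie whole inside the span of another gene, as do 5.3%; with so few members this is a description only. Angptl2 lies whole within 1 intron of Ralgps1, a guanine nucleotide exchange factor gene on the reverse strand at chr2:32988941-33227006, and shares 0 exon bases with it. Angptl1 (chr1:158768693-158791209, forward) lies likewise within 1 intron of the related gene Ralgps2 (chr1:158734297-158869757, reverse). Angptl7 (chr4:147869292-147874569, reverse) lies within 1 intron of Mtor, the growth-regulating kinase gene, and Angpt2 (chr8:18690263-18741562, reverse) lies inside the span of the opposite-strand gene Mcph1 with 0 shared exon bases. Angptl6 (chr9:20678253-20684154, reverse) shares 264 exon bases with A230050P20Rik on the forward strand, and Angpt1 (chr15:42256273-42508523, reverse) shares 283 with the lincRNA Gm17473, which the count files do not list. Angptl4 (chr17:33910695-33918520, reverse), Tek (chr4:94405980-94541667, forward) and Tie1 (chr4:118143796-118162666, reverse) overlap no annotated gene.

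**Figure D4:**
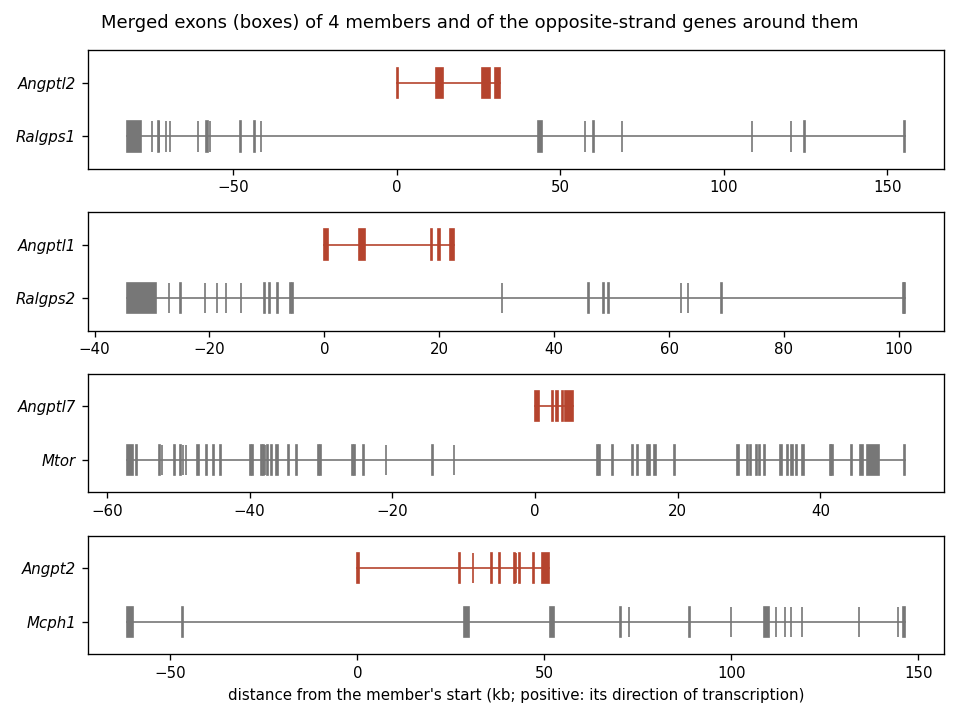
Merged exons (boxes) of Angptl2, Angptl1, Angptl7 and Angpt2 (red) and of the opposite-strand genes around them (grey), against distance from the member's start in kilobases, positive in its direction of transcription. Angptl2, Angptl1 and Angptl7 each fall between neighbouring exons of the grey gene, while an Mcph1 exon lies within an Angpt2 intron.

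None of the 5 counted genes around the members passed the test for a sex difference. SMART-seq2 reads do not mark strand, and how the counter treated strand is not given in the sources used here, so reads from a host intron could be counted for a nested gene. Of the reads that the counter assigned to a gene, to no gene or ambiguously, 57.8% to 60.5% in each library went to no gene. Only 0.145% to 0.169% were ambiguous. Ralgps1 stood at 6.87, 8.68, 8.12 and 2.86 CPM in females and 5.87, 8.17, 8.09 and 7.69 CPM in males, with a log2 fold change of −0.19 (SE 0.31, edgeR adjusted p = 0.892). The ratio of Angptl2 to Ralgps1 reads was 1.32 to 3.71 in females and 4.58 to 6.79 in males, without overlap. The Angptl2 difference was known when the part was chosen, and Ralgps1 had only 17 to 55 reads per library. This non-overlap is therefore no separate result, and the Ralgps1 count does not measure reads from its introns. Ralgps2, Mtor, Mcph1 and A230050P20Rik had log2 fold changes of −0.34, −0.08, −0.03 and 0.24 (edgeR adjusted p = 0.808, 0.922, 0.978 and 0.775). The reads of Angpt2 relative to Mcph1 were 1.01 to 2.50 in females and 0.417 to 1.15 in males, which overlap. For Angptl6 and A230050P20Rik, whose exons overlap, the ratio was 0.706 to 0.818 in females and 0.846 to 0.930 in males, also without overlap, although the levels of Angptl6 itself were interleaved. The share of Angptl2 reads that came from Ralgps1 introns was not tested.

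No gene of the surrounding pathways passed adjusted p 0.05. The 45 genes were listed as other family members, Angptl2 receptors, lipase control, Tie signalling and the VEGF system. Of these, 42 were in the count tables and 27 were tested by edgeR. Of the 27, 0 passed edgeR's adjusted threshold, which 0.0879% of all tested genes passed. Of the 42, 0 passed that of DESeq2, where 11 had no adjusted value. At an unadjusted p under 0.05 edgeR named 4 of the 27, or 14.8%, against 7.11% of all genes. By edgeR 3 were higher in females (4.44% of all genes) and 1 was lower (2.67%). DESeq2 named 4 of the 42, and its share over all genes is not given. The edgeR count was 2 without male replicate 1 and 0 with the glial covariate. The share over all genes is not given for these fits, so the falls are not read as particular to the listed genes. The median log2 fold change of the 27 was 0.12, against 0.00 over all genes.

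Among the lipase control genes, Lpl and Ppara had an unadjusted p under 0.05, each higher in females. Lpl, which encodes lipoprotein lipase, stood at 3.71, 4.34, 3.12 and 7.58 CPM in females and 1.77, 2.53, 2.64 and 1.33 CPM in males (log2 fold change 1.16, SE 0.35, edgeR adjusted p = 0.609). Ppara, a lipid-sensing nuclear receptor that induces Angptl4, stood at 3.85, 2.78, 4.17 and 2.86 CPM in females and 1.64, 1.04, 2.48 and 2.66 CPM in males (0.78, SE 0.33, edgeR adjusted p = 0.696). The sexes did not overlap for either gene, at 7 to 45 reads per library, as was so for 5.52% of all genes. Of the 7 tested genes of this list, 6 had a positive and 1 a negative log2 fold change, with a median of 0.73, where 50.7% of all genes were positive. Its 2 genes with p under 0.05 compare with 7.11% of all genes, and neither kept p under 0.05 with the glial covariate. For that fit no share over all genes is given, so nothing is read from this. The most abundant were Hif1a, the hypoxia factor, at a mean of 165 CPM, and Lmf1, which matures lipases, at 36.0 CPM, neither with p under 0.05.

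The Angptl2 receptor list held no gene with p under 0.05 among 4 tested. Its most abundant members were Itgb1, the beta-1 integrin subunit, at 305 CPM and Mcam at 102 CPM, while Itga5, the alpha-5 subunit, and Lilrb3, the mouse symbol of the inhibitory Angptl2 receptor PirB, had at most 5 and 10 reads in any library. Itgb1 stood at 287, 318, 329 and 143 CPM in females and 350, 329.3, 336 and 349 CPM in males, with female replicate 4 far below the rest and female replicate 3 just below male replicate 2, and a log2 fold change of −0.36 (SE 0.22, edgeR adjusted p = 0.768).

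In the Tie signalling list, 2 of 10 tested genes had p under 0.05, in opposite directions, against 7.11% of all genes. Neither kept p under 0.05 with the glial covariate, a fit for which no share over all genes is given. Foxo1, a transcription factor that is held out of the nucleus when Tek is active and that induces Angpt2 in endothelium, stood at 5.64, 9.89, 5.42 and 7.08 CPM in females and 3.27, 5.35, 4.13 and 4.44 CPM in males (log2 fold change 0.69, SE 0.26, edgeR adjusted p = 0.651). Shc1, an adaptor of receptor tyrosine kinases, stood at 225, 222, 196 and 130.0 CPM in females and 298, 229.6, 247 and 271 CPM in males (−0.45, SE 0.17, edgeR adjusted p = 0.656). Neither overlapped between the sexes, as was so for 5.52% of all genes, and the nearest female and male lay close together for each (5.42 and 5.35 CPM for Foxo1). The median of the list was −0.11, and Pik3r1, a phosphoinositide kinase subunit, followed Shc1 in level at a mean of 134 CPM.

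The VEGF list had 0 of 6 tested genes with p under 0.05 and a median log2 fold change of −0.06. The endothelial VEGF receptors Kdr, Flt1 and Flt4 had at most 9, 12 and 4 reads in any library and did not pass the filter, as was so for Tek and Tie1. The neuropilins Nrp1 and Nrp2, co-receptors that axons also use, were the most abundant at means of 101 and 72.3 CPM.

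**Figure D5:**
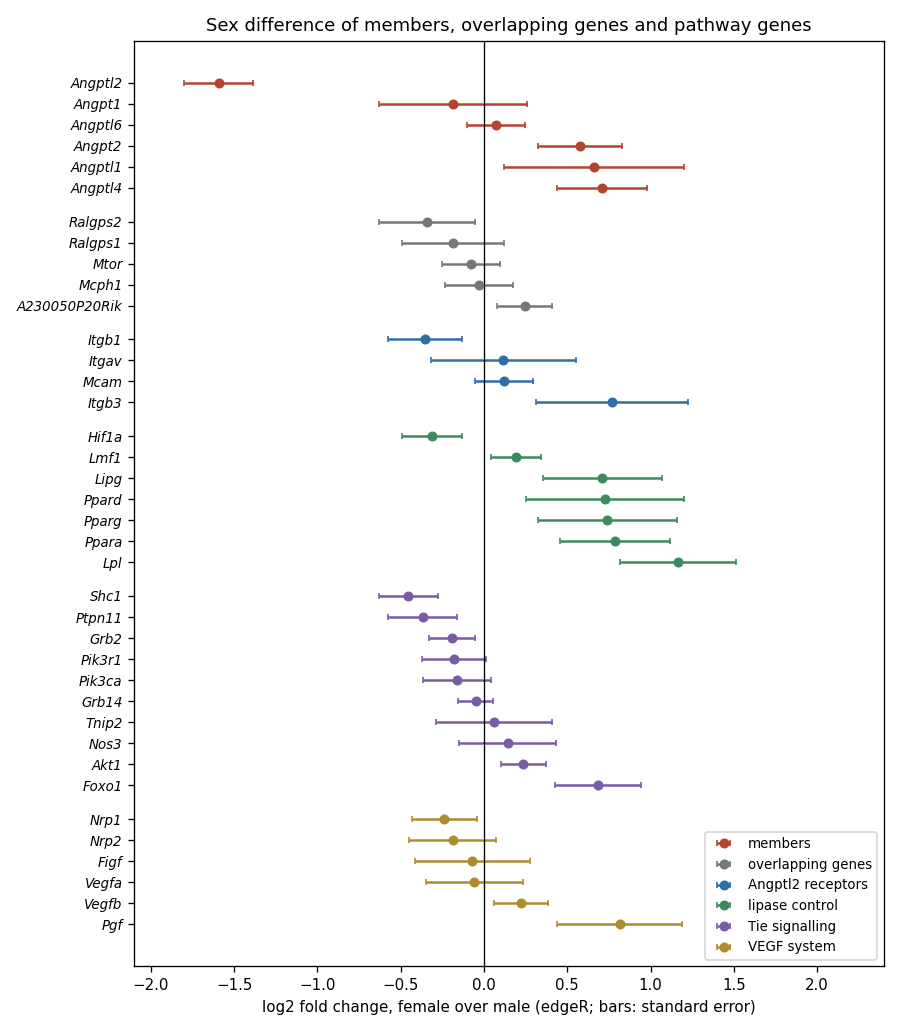
log2 fold change, female over male, from edgeR (horizontal axis; bars are standard errors) of the 6 fitted members, the 5 overlapping genes that were counted and the 27 tested pathway genes, coloured by list. Angptl2 at −1.59 is the farthest from 0, and its host gene Ralgps1 is at −0.19.

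The genes most like Angptl2 across the 8 libraries were Serpina3i, Fam150b, Pappa, Adamts8 and Steap1. Likeness was the root mean square difference of log2(CPM + 1) values, each gene centred on its own mean, over 10640 genes with a mean of at least 5 CPM, where the median difference was 0.83. It was 0.37 for Serpina3i, a serine protease inhibitor gene, 0.38 for Fam150b, a ligand gene of the receptor kinase Alk, 0.41 for Pappa, a protease of insulin-like growth factor binding proteins, 0.42 for the metalloprotease gene Adamts8 and 0.43 for Steap1. All 5 were higher in every male than in every female, for example Fam150b at 27.2 to 43.3 CPM in females and 77.6 to 113 CPM in males, and Pappa at 5.73 to 9.58 CPM and 11.5 to 17.8 CPM. This follows from the way they were picked and is no separate result. Of the other members, 3 were abundant enough for this measure, and all lay beyond the median difference: Angptl6 was at 0.90, Angpt2 at 1.14 and Angptl4 at 1.19.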

How the data were processed

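Single reads from 8 SMART-seq2 libraries of sorted DRG neurons were aligned to mm9 with TopHat2 and counted per gene with HTSeq-count by the authors, who deposited the counts without normalization; versions, annotation release and strand option are not given in the sources used here. Summary lines of the counter were dropped. The members and gene lists were chosen with earlier results of these data known. Named genes were the members, the genes overlapping them, in each list those with an unadjusted p under 0.05 and the 2 most abundant, and the 5 profiles most like Angptl2. Outside this rule the scarce receptor genes Itga5, Lilrb3, Kdr, Flt1 and Flt4 and some cell type markers were named as well. A listed family gene is not reported here.

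Counts were fitted by edgeR 4.0.16 (R 4.3.3; quasi-likelihood test, TMM factors, default expression filter, sex alone, Benjamini-Hochberg adjustment over 12518 genes), with DESeq2 1.42.0 as an alternative; the fit was tested on simulated counts. Lengths and positions came from GENCODE M1 (NCBIM37). Of the 9 members, 6 were in the RefSeq promoter table (GRCm38.p6), matched to NCBIM37 by sequence. Marker sums were compared as log2(CPM + 1) over 70 labelings. Depth of 4.80 to 7.33 M gene reads set the floors, which cover counting error only, since reads had no molecular identifiers. Alternatives were other scaling, no filter, omitted libraries, replicate block, glial covariate and another length.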

Additional observations from a re-analysis of the deposited data

Results flagged for a closer look

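Among 18 groups of 4 libraries examined for a library set apart, 2 were found, and chance gives about 1 in 20 groups, or 0.9 here. Male replicate 1 was the lowest male for Angptl4, at 4.01 on the log2(CPM + 1) scale against 4.67 to 4.79 in the other males (15.1 CPM against 24.5 to 26.6 CPM), with 0.852 of the male range in that gap. The same library was the lowest male for Angpt2, at 3.40 against 4.50 to 4.70 (9.55 CPM against 21.6 to 25.0 CPM), with 0.846 of the range in the gap. It also had the lowest neuronal, glial and fibroblast marker sums, 22149.5, 5362 and 61.5 CPM, and the highest mural sum, 102 CPM. Its Angptl2 level of 31.2 CPM was the lowest of the males. The part of these sums in its Angptl4 and Angpt2 levels was not tested.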

How the results depend on the processing

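The log2 fold change of Angptl2 was −1.70 to −1.45 over fits that omit 1 library each and −1.70 to −1.57 under every other alternative. Of the listed pathway genes, 0 passed adjusted p 0.05 under any alternative. The count at an unadjusted p under 0.05 was 2 to 6 with each library left out (2 without male replicate 1) and 5 with no filter. It was 3 without female replicate 4 and male replicate 1 together, and 0 with the glial covariate. The last 2 alternatives were chosen after seeing the data, and the causes were not tested. No share over all genes is given for these alternatives, so nothing is read from the changes in this count. With the replicate number as a block (replicate block) the count was 5 and the Angptl2 estimate −1.59. The block lowered the SE of Angptl4 (0.27 to 0.18), Angpt1 (0.44 to 0.33) and Angpt2 (0.25 to 0.23). It raised that of Angptl2 (0.21 to 0.23) and Angptl6 (0.17 to 0.19). Same-numbered libraries correlated at −0.13 to 0.16 after centring on their group, and differently numbered ones at −0.29 to 0.19. With 4 libraries per sex these values cannot tell whether the numbers pair the samples. The ratio of Angptl1 to Angpt1 turned to −0.15 and the endothelial marker difference to −0.093 without female replicate 4; with each library left out in turn they ranged from −0.15 to 0.32 and from −0.093 to 0.18, and the cause was not tested. Log2 fold changes not fixed in sign with each library left out were those of Angptl6 (−0.04 to 0.15) and Angpt1 (−0.42 to 0.21), while Angptl1 ranged from 0.23 to 1.16, Angptl4 from 0.38 to 0.86 and Angpt2 from 0.35 to 0.72. Without female replicate 4 and male replicate 1 together, Angptl1 was at −0.10 and Angpt2 at 0.27. Depth limits Angptl7, Tek and Tie1, where a few reads per library allow no comparison of the sexes.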
